A study of Mus musculus with 19 samples.

Results

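The CD4 T cells of Cd4CreTet2KO mice were set against the CD4 T cells of Tet2fl/fl mice, both sorted from liver metastases. The comparison used 6 of the 19 libraries of the series, 3 of each genotype, which were chosen by the cell type and genotype in the sample labels. Of the 25639 genes in the table of counts, 12963 passed a filter on low counts and were tested. The metastases were collected 30 days after Venus-AKTPM/LOH colorectal cancer cells had been injected into the spleen, and the sort of T cells used CD45, CD3ε, CD4 and CD8α. Cd4CreTet2KO mice carry floxed Tet2 together with a Cre recombinase driven by Cd4 sequences, which is active in developing T cells before the CD4 and CD8 lineages part, so that both lineages can lose Tet2. Tet2fl/fl mice were the controls. They carry the same floxed gene and their label names no Cre, and since no group had Cre without floxed Tet2, an effect of Cre itself and an effect of Tet2 loss cannot be told apart. Each library came from its own animal, and the sources used here give no age, sex or strain.

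Tet2 encodes a dioxygenase that oxidises 5-methylcytosine in DNA and thereby starts the removal of methyl marks, and inactivating mutations of the human gene are common in clonal haematopoiesis. CD4 T cells in tumours are a mixture of conventional helper cells, which are activated by antigen on MHC class II molecules, and Foxp3-expressing regulatory cells, which restrain immune responses. Heat shock chaperones, which come up in the results below, fold or refold other proteins, and the inducible members are switched on by the factor HSF1 when cells meet heat or other stress.

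Total counts on genes were 17424237, 17575534 and 15543888 in Cd4CreTet2KO replicates 1 to 3, against 9096532, 15354518 and 16451285 in Tet2fl/fl replicates 1 to 3. The libraries carried the markers of their label: Cd4, the co-receptor that gives the cells their name, stood at 783, 674 and 694 CPM (counts scaled to library size, with TMM factors) in Cd4CreTet2KO libraries and at 679, 733 and 832 CPM in Tet2fl/fl libraries. Cd8a, a chain of the CD8 co-receptor, did not exceed 0.380 CPM in Cd4CreTet2KO libraries and reached 5.53 CPM in Tet2fl/fl replicate 2. Cd8b1, the other chain, stood at 16.1, 6.74 and 6.47 CPM in Cd4CreTet2KO libraries and at 10.8, 5.86 and 26.8 CPM in Tet2fl/fl libraries. Across genes, Spearman correlations were 0.939 to 0.952 among Cd4CreTet2KO libraries, 0.897 to 0.906 among Tet2fl/fl libraries and 0.905 to 0.933 between the genotypes. The controls were thus no more alike among themselves than they were to the knockout libraries. In a principal component analysis the leading component, 29.8% of the variance, set Tet2fl/fl replicate 3 apart, and the next, 25.9%, set Tet2fl/fl replicate 1 apart.

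The targeted gene, Tet2 (ENSMUSG00000040943, chromosome 3, 133169440 to 133250900 in the coordinates of the table), was counted over its whole length, and a deletion of some exons need not change such a count. Its level was 92.7, 173 and 111 CPM in Cd4CreTet2KO libraries, against 86.0, 146 and 85.5 CPM in Tet2fl/fl libraries. The ranges overlapped, and the log2 fold change was 0.25 (SE 0.28, edgeR adjusted p = 0.978). Without Cd4CreTet2KO replicate 2 it was -0.046, so the whole-gene count gave no direction and no check of the deletion. Of the 10 genes listed for TET enzymes and DNA methylation none was called by edgeR. Dnmt1, the maintenance methyltransferase, stood at 352 ± 34.7 CPM in Cd4CreTet2KO and 260 ± 38.4 CPM in Tet2fl/fl cells (SD, n = 3 each; log2 fold change 0.44, edgeR adjusted p = 0.686). Dnmt3b, a methyltransferase that sets new marks, stood at 7.54 ± 1.55 CPM in Cd4CreTet2KO and 18.4 ± 3.79 CPM in Tet2fl/fl cells (log2 fold change -1.28, edgeR adjusted p = 0.703).

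Few genes passed the edgeR test with 3 libraries of each genotype. The edgeR quasi-likelihood test with Benjamini-Hochberg adjustment called 8 of 12963 genes at an adjusted p under 0.05 (0.0617%), of which 2 were higher in Cd4CreTet2KO cells (0.0154%) and 6 were lower (0.0463%). The genes that rose were Gh and Zc3h12c, and those that fell were the heat shock genes Hspa1a, Hspa1b and Dnajb1 and the gene models Gm45234, Gm5148 and Rps18-ps6. At an unadjusted p under 0.05 there were 811 genes (6.26%), 455 higher and 356 lower. The 3 libraries of each genotype did not overlap for 1808 genes (13.9%), 1010 higher (7.79%) and 798 lower (6.16%). The median log2 fold change over all genes tested was -0.0018, with 5th and 95th percentiles of -1.30 and 1.52. The count of calls rests on the test: with DESeq2 it was 149 of 14059 genes (1.06%), 80 higher (0.569%) and 69 lower (0.491%), and with no filter on low counts it was 106 of 18769 (0.565%). In sorted bulk cells, fewer cells of a kind and less RNA per cell cannot be told apart, which applies to every gene below.

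**Figure D1:**
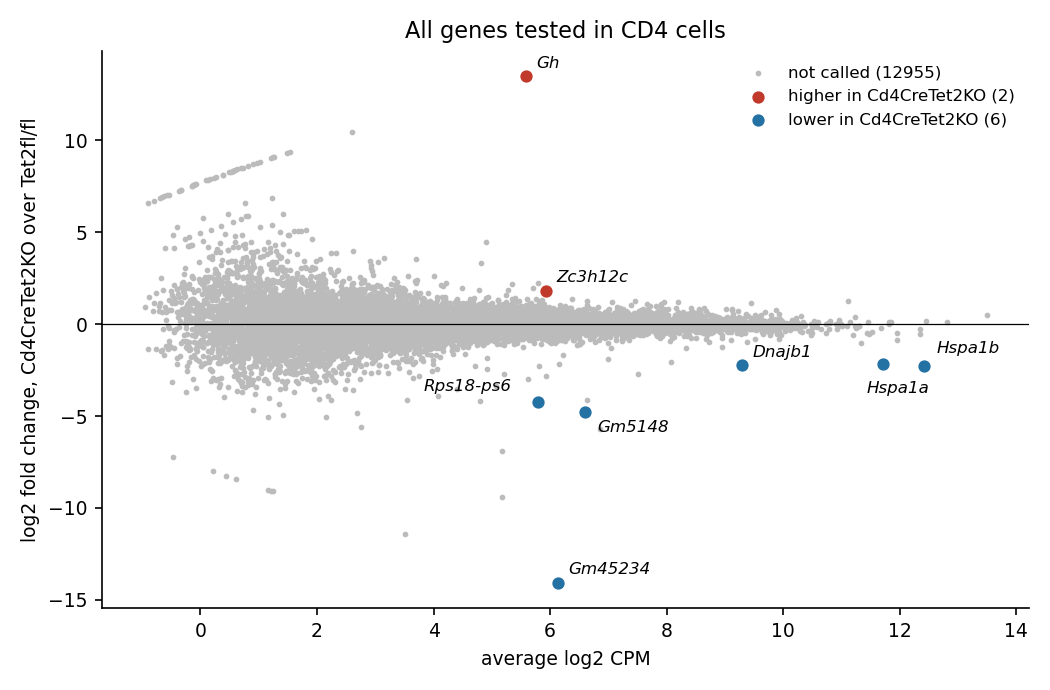
Each point is a gene tested in CD4 cells, with its average log2 CPM on the horizontal axis and its log2 fold change (Cd4CreTet2KO over Tet2fl/fl) on the vertical axis. The 2 red genes were higher and the 6 blue genes lower in Cd4CreTet2KO at an edgeR adjusted p under 0.05; the other genes are grey, and fold changes of genes at 0 in all libraries of a genotype are not bounded.

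**Figure D2:**
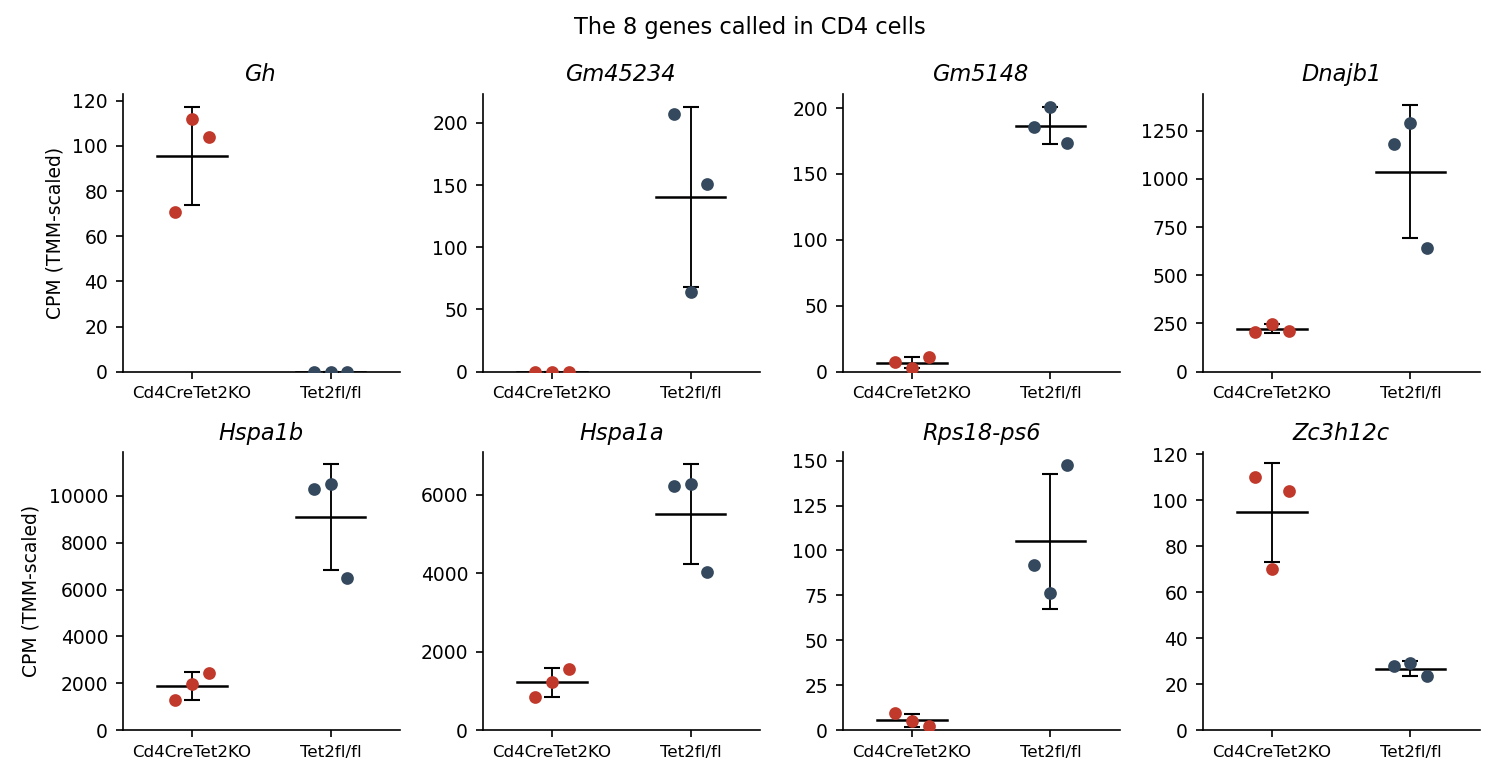
CPM of the 8 called genes in each library (points), Cd4CreTet2KO left and Tet2fl/fl right, with the mean (line) and SD (bar) of 3 libraries. For none of the 8 genes do the genotypes overlap; Gh is at 0 in every Tet2fl/fl library and Gm45234 at 0 in every Cd4CreTet2KO library.

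The most abundant of the genes that fell were the inducible heat shock genes. Hspa1b (ENSMUSG00000090877, chromosome 17, 35175412 to 35178214) encodes the stress-inducible chaperone HSP70 and stood at 1271, 1973 and 2427 CPM in Cd4CreTet2KO libraries, against 10299, 10526 and 6504 CPM in Tet2fl/fl libraries. Its neighbour Hspa1a (ENSMUSG00000091971, chromosome 17, 35188166 to 35191132) encodes a nearly identical protein and stood at 837, 1237 and 1571 CPM in Cd4CreTet2KO libraries, against 6222, 6276 and 4040 CPM in Tet2fl/fl libraries. Every knockout library lay below every control, and the lowest control, replicate 3, was still above the highest knockout library. The log2 fold change was -2.27 (SE 0.25) for Hspa1b and -2.18 (SE 0.24) for Hspa1a, each with an edgeR adjusted p of 0.0011. Because reads of these near-identical copies can be split between them, their summed share of all counts is the safer value: 0.314% ± 0.099 in Cd4CreTet2KO and 1.44% ± 0.349 in Tet2fl/fl cells (SD, n = 3 each). Dnajb1 (ENSMUSG00000005483, chromosome 8, 84334822 to 84339282), the HSP40 co-chaperone that delivers substrates to HSP70, stood at 207, 249 and 213 CPM in Cd4CreTet2KO libraries, against 1179, 1292 and 644 CPM in Tet2fl/fl libraries. Its log2 fold change was -2.22 (SE 0.24, edgeR adjusted p = 0.0011). These calls rested on the libraries in the fit: with all 9 CD4 libraries, the Vav1CreTet2KO libraries included, none of the 3 genes was called, with edgeR adjusted p up to 1.00, and with 8 of them only Dnajb1 was, while their log2 fold changes were -1.97 or lower in every setting run.

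The promoters of Hspa1a and Hspa1b are shown because the pair that fell together is nearly identical there. That of Hsph1, which was not called, is shown as an example with a triplet. The windows of Dnajb1, which held no match, are not printed. HSF1 binds arrays of inverted units of the letters GAA, and the arrays searched here were the pairs GAANNTTC and TTCNNGAA, each of which reads the same on both strands, and the triplets GAANNTTCNNGAA and TTCNNGAANNTTC, which contain overlapping pairs. The pairs were searched after the triplets had given no match in the called genes. The sequences run 5′ to 3′ from 250 bases before to 50 bases after the RefSeq start (GRCm38.p6, minus strand in each case), with matches to a pair or triplet in capitals:
Hspa1a chr17:34972107-34972406: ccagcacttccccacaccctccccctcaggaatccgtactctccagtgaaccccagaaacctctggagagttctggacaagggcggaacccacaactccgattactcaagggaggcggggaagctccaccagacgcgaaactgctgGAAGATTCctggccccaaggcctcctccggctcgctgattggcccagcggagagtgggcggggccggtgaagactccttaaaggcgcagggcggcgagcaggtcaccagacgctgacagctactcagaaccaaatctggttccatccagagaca
Hspa1b chr17:34959189-34959488: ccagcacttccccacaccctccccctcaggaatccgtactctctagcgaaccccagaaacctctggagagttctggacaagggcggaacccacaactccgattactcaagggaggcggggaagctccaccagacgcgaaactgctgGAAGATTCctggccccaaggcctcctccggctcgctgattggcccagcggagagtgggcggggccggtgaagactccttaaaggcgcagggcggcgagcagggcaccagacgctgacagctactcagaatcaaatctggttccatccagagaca
Hsph1 chr5:149636287-149636586: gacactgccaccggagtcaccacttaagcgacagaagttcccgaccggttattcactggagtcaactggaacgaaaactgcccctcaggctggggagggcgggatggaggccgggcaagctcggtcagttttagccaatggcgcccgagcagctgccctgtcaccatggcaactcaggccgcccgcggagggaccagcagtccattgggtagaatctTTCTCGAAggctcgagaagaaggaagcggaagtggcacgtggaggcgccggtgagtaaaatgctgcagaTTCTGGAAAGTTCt
The Hspa1a and Hspa1b windows were identical at 296 of 300 bases, and each held 1 pair, which ended 96 bases before the start. The window of Hsph1, whose product is a nucleotide exchange factor for HSP70, held 3 pair matches in 2 places, and the block after the start is a triplet. Of the 16 heat shock chaperone genes with a promoter in the RefSeq table, 10 (62.5%) held a pair, against 16.97% of 27025 genes, and 4 (25%) held a triplet, against 0.662% of genes. Among immediate early genes 3 of 19 (15.8%) held a pair, and among cell cycle genes 5 of 26 (19.2%). Neither window of Dnajb1 held a pair, which says only that these letters are absent from those windows. Chordc1 held the most matches of the 16 chaperone genes, with 5 pairs and 3 triplets, and its log2 fold change was above 0 (0.34). A link between matches and fold changes was not tested.

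Most other heat shock chaperones lay lower in the knockout libraries without passing the test. All 19 listed genes were tested, and 3 fell, none rose and 16 were not called by edgeR. At an unadjusted p under 0.05 there were 12 lower and 0 higher, where 2.75% of all genes were lower. The libraries did not overlap for 7 of 19, all lower, where 6.16% of all genes did so. The median log2 fold change of the list was -0.79, against -0.0018 for all genes. Hspa8, the constitutive HSP70 of the cytosol, stood at 3190, 2552 and 2843 CPM in Cd4CreTet2KO libraries and 5404, 4999 and 4928 CPM in Tet2fl/fl libraries (log2 fold change -0.84, SE 0.15, edgeR adjusted p = 0.083). The genotypes were fully apart for this gene. Hsph1 stood at 170, 140 and 244 CPM in Cd4CreTet2KO and 648, 500 and 233 CPM in Tet2fl/fl libraries (log2 fold change -1.32, edgeR adjusted p = 0.342), and Tet2fl/fl replicate 3 lay among the knockout values. Hsp90aa1, an inducible HSP90, averaged 1898 ± 16.2 CPM in Cd4CreTet2KO and 2825 ± 789 CPM in Tet2fl/fl cells (log2 fold change -0.57, edgeR adjusted p = 0.583). Hspa5, the HSP70 of the endoplasmic reticulum, averaged 836 ± 113 CPM in Cd4CreTet2KO and 1029 ± 165 CPM in Tet2fl/fl cells (log2 fold change -0.30, edgeR adjusted p = 0.911). Only Chordc1 (0.34) and Hspa4l (0.21) had a log2 fold change above 0. The list of unfolded protein response genes, which serve the endoplasmic reticulum, had a median of -0.10, and none of its 13 tested members was at an unadjusted p under 0.05.

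The 19 chaperones together took 1.32%, 1.28% and 1.46% of counts in Cd4CreTet2KO libraries, against 3.50%, 3.31% and 2.39% in Tet2fl/fl libraries. The means were 1.35% ± 0.0968 in Cd4CreTet2KO and 3.07% ± 0.591 in Tet2fl/fl cells (SD, n = 3 each). The exact two-sided permutation test gave p = 0.1, the smallest value that 3 against 3 allows. This share was tested with its difference known from earlier results, so the test adds no independent support. Hspa1a and Hspa1b, already called, made up -1.13 of the difference of -1.72 percentage points. Leaving out any library kept the difference of the 19 chaperones between -2.05 and -1.501 percentage points. Ribosomal protein genes took 4.83% ± 1.16 of counts in Cd4CreTet2KO and 5.61% ± 0.931 in Tet2fl/fl cells (exact permutation p = 0.5). Mitochondrially encoded genes took 1.48% ± 0.235 in Cd4CreTet2KO and 1.65% ± 0.0879 in Tet2fl/fl cells (exact permutation p = 0.4). On leaving out each library, the difference ranged from -1.45 to -0.25 percentage points for ribosomal protein genes and from -0.27 to -0.042 percentage points for mitochondrial ones, and these tests, too, cannot give a p under 0.1.

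**Figure D3:**
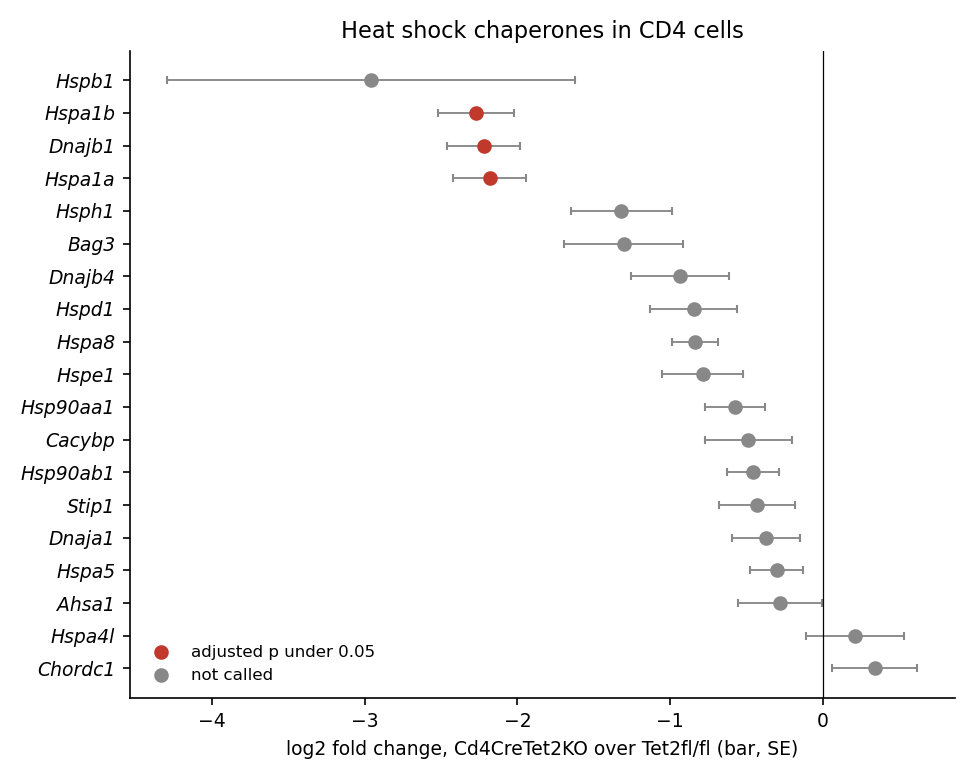
Log2 fold change (Cd4CreTet2KO over Tet2fl/fl, horizontal axis) of the 19 heat shock chaperone genes in CD4 cells, with the SE as bars. The 3 red genes passed an edgeR adjusted p of 0.05, and 17 of 19 points lie below 0.

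Gh, which encodes growth hormone, was detected in the knockout libraries alone. Gh (ENSMUSG00000020713, chromosome 11, 106191097 to 106192691) stood at 70.6, 112 and 104 CPM in Cd4CreTet2KO libraries, from counts of 1221, 2006 and 1640, and was at 0 counts in the 3 Tet2fl/fl libraries. Against a floor of 3 counts over the control group it was at least 1285-fold higher (edgeR adjusted p = 5.47e-06), a call that was lost with voom (limma adjusted p = 0.102). Growth hormone is made above all in the pituitary, and of the other pituitary hormone genes Prl, Tshb, Lhb and Cga were at 0 in all 6 libraries. Fshb stood at 0, 0.948 and 0.127 CPM in Cd4CreTet2KO libraries and at 0 in the 3 Tet2fl/fl libraries. Pomc, the precursor of corticotropin, stood at 1.27, 5.96 and 3.30 CPM in Cd4CreTet2KO libraries and 10.9, 3.56 and 6.59 CPM in Tet2fl/fl libraries. Cd79b, the tested gene nearest to Gh, had a log2 fold change of 0.43 (edgeR adjusted p = 0.999), and Smarcd2 one of 0.046.

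In other cells of the same series Gh was near or at 0. It was at 0 in the 3 CD4 libraries of Vav1CreTet2KO mice, in which Cre is active across blood cells. In CD8 T cells of Cd4CreTet2KO mice it was listed at 0.626, 0.0589, 0 and 0 RPKM, a level scaled to gene length and library size, and in CD8 cells of Tet2fl/fl mice at 0 in all 3 libraries. CD8 replicates 3 and 4 came from the animals that gave CD4 replicates 1 and 3, in which Gh stood at 37.2 and 48.5 RPKM in the CD4 table. The tables were normalized separately. The signal was therefore found in CD4 and not in CD8 cells of the same mice.

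Of the genes that fell, 3 were gene models whose counts need care. Gm45234 (ENSMUSG00000107478, chromosome 6, 124716152 to 124732984) was at 0 in all Cd4CreTet2KO libraries, against 207, 63.8 and 151 CPM in Tet2fl/fl libraries, from counts of 1859, 969 and 2449. It was at least 2221-fold lower against a floor of 3 counts over the knockout group (edgeR adjusted p = 1.57e-05), a call that was lost with voom (limma adjusted p = 0.102). The model overlaps Atn1 and Grcc10 on the same strand, and those genes had log2 fold changes of 0.45 (edgeR adjusted p = 0.941) and -0.029 (edgeR adjusted p = 0.999). Reads of the 3 overlapping genes cannot be assigned with certainty, so the value of Gm45234 depends on how the authors' counting treated them. Rps18-ps6 (ENSMUSG00000069117, chromosome 13, 97896580 to 97897140), a retrocopy of the ribosomal protein gene Rps18, stood at 9.31, 5.29 and 2.16 CPM in Cd4CreTet2KO libraries and 91.7, 76.2 and 148 CPM in Tet2fl/fl libraries. Its log2 fold change was -4.23 (SE 0.48, edgeR adjusted p = 0.0013), and it was called under all 16 other settings. Rps18 itself, with which it can share reads, stood at 616, 377 and 428 CPM in Cd4CreTet2KO and 454, 375 and 507 CPM in Tet2fl/fl libraries (log2 fold change 0.088, edgeR adjusted p = 0.992).

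Gm5148 (ENSMUSG00000058174, chromosome 3, 37768339 to 37778639) stood at 7.12, 2.45 and 11.2 CPM in Cd4CreTet2KO libraries, against 185.3, 201 and 174 CPM in Tet2fl/fl libraries. The controls were close together and all knockout libraries far below them (log2 fold change -4.76, SE 0.44, edgeR adjusted p = 0.000309). The call was lost with 8 CD4 libraries in the fit, the Vav1CreTet2KO ones included but for the shallowest (edgeR adjusted p = 0.381). A GRCm38 gene annotation gives both Gm5148 and Rps18-ps6 as protein coding, and the symbol Gm5148 names no function. In CD8 cells the gene did not separate the genotypes: Cd4CreTet2KO libraries stood at 53.5, 39.7, 97.8 and 73.4 RPKM and Tet2fl/fl libraries at 50.5, 61.9 and 37.1 RPKM, with overlap. Rps18-ps6 in CD8 cells stood at 72.8, 55.2, 169 and 109 RPKM in Cd4CreTet2KO and 98.5, 81.4 and 81.1 RPKM in Tet2fl/fl libraries, also with overlap. CD8 replicates 3 and 4, from the animals of CD4 replicates 1 and 3, were the highest knockout values for both genes. In CD4 cells of those animals Gm5148 stood at 2.23 and 3.09 RPKM and Rps18-ps6 at 7.54 and 1.54 RPKM.

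Zc3h12c was the other gene that rose. It encodes a CCCH zinc finger protein of the Regnase family, whose best known member degrades transcripts of inflammatory genes. Zc3h12c (ENSMUSG00000035164, chromosome 9, 52022644 to 52079872) stood at 110, 70.1 and 104 CPM in Cd4CreTet2KO libraries, against 28.0, 29.0 and 23.3 CPM in Tet2fl/fl libraries. Every knockout library was above every control, by a log2 fold change of 1.82 (SE 0.27, edgeR adjusted p = 0.0219). The call was lost on leaving out Cd4CreTet2KO replicate 1 or 3 or any of the 3 Tet2fl/fl replicates, with log2 fold changes between 1.70 and 2.01 in every setting, and the highest edgeR adjusted p of any setting was 1.00, with all 9 CD4 libraries in the fit.

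Below the threshold, the largest changes among well-expressed genes included higher levels of several surface proteins and lower levels of Thbs1 and Arg1 in Cd4CreTet2KO libraries. The rule for large changes (groups apart, mean log2 CPM of at least 3, unadjusted p under 0.01) was met by 179 genes, 106 higher and 73 lower. Nrn1, which encodes the surface protein neuritin, stood at 55.2, 43.3 and 53.4 CPM in Cd4CreTet2KO libraries and 6.25, 8.04 and 0.862 CPM in Tet2fl/fl libraries (log2 fold change 3.33, SE 0.62, edgeR adjusted p = 0.094). Jcad, known from endothelial cell junctions, stood at 62.7, 41.5 and 66.5 CPM in Cd4CreTet2KO libraries and 5.58, 2.37 and 0 CPM in Tet2fl/fl libraries (log2 fold change 4.48, edgeR adjusted p = 0.395). The genotypes were wide apart for both, while the controls were spread over their low values. Kcna4, a voltage-gated potassium channel, averaged 27.5 ± 4.81 CPM in Cd4CreTet2KO and 4.43 ± 3.73 CPM in Tet2fl/fl cells (log2 fold change 2.62, edgeR adjusted p = 0.369). Matn2, a matrix protein, averaged 23.8 ± 4.92 CPM in Cd4CreTet2KO and 2.00 ± 2.22 CPM in Tet2fl/fl cells (log2 fold change 3.56, edgeR adjusted p = 0.298). The same rule took Stum, Muc16 and the histone gene H2ac22 among the higher genes, at log2 fold changes of 3.62, 2.49 and 2.38, and Setd4 and Uprt among the lower ones, at -2.37 and -1.94, none of them called by edgeR.

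Thbs1, which encodes the matrix protein thrombospondin, stood at 0.926, 2.34 and 2.92 CPM in Cd4CreTet2KO libraries and 35.8, 8.76 and 49.7 CPM in Tet2fl/fl libraries (log2 fold change -3.93, SE 0.71, edgeR adjusted p = 0.083). Arg1, which encodes an arginase, stood at 4.63, 2.17 and 3.36 CPM in Cd4CreTet2KO libraries and 40.7, 5.93 and 70.0 CPM in Tet2fl/fl libraries (log2 fold change -3.52, edgeR adjusted p = 0.153). In both, Tet2fl/fl replicates 1 and 3 were high, and replicate 2 lay lower but above every knockout library. The macrophage markers Lyz2 and Csf1r were also highest in Tet2fl/fl replicates 1 and 3, but their replicate 2 lay below every knockout library. Lyz2, lysozyme, stood at 11.3, 1.39 and 5.07 CPM in Cd4CreTet2KO libraries and 58.0, 1.05 and 125 CPM in Tet2fl/fl libraries. Csf1r, which binds the growth factor M-CSF, stood at 2.08, 1.505 and 3.30 CPM in Cd4CreTet2KO libraries and 13.8, 0.395 and 27.7 CPM in Tet2fl/fl libraries. Of the 16 macrophage and monocyte markers, 11 were tested, none was called by edgeR, 10 of the 11 had a log2 fold change below 0 and the median was -2.30. DESeq2 called 1 marker of this list higher and 1 lower, where it called 0.569% of all genes higher and 0.491% lower. The summed level of the 15 markers other than Ccr2, which T cells also express, was 79.4, 36.2 and 58.4 CPM in Cd4CreTet2KO libraries and 325, 33.5 and 411 CPM in Tet2fl/fl libraries. Clec4f and Vsig4, markers of liver macrophages, were at 0 in all 6 libraries. Marco, another macrophage marker of the list, stood at 3.01 CPM in Cd4CreTet2KO replicate 1 and at 0 in every other library. The hepatocyte genes Fgb and Fga were also highest in Tet2fl/fl replicates 1 and 3, at up to 3.46 and 1.72 CPM, while Trf, another hepatocyte marker, was not. The part of macrophage or hepatocyte RNA in the values of Thbs1 and Arg1 was not tested.

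Markers of other cell types differed in which libraries were high. The 8 plasmacytoid dendritic cell markers, all tested, summed to 714, 465 and 690 CPM in Cd4CreTet2KO libraries and 372, 369 and 679 CPM in Tet2fl/fl libraries, with a median log2 fold change of 0.47. DESeq2 called 1 of them, Runx2, which T cells also express, higher. Dendritic cell and MHC class II genes summed to 768, 377 and 723 CPM in Cd4CreTet2KO libraries and 514, 327 and 768 CPM in Tet2fl/fl libraries, with a median of 0.11 over 13 tested. The genotypes overlapped for both sums. Natural killer markers summed to 36.6, 16.4 and 24.9 CPM in Cd4CreTet2KO libraries and 32.1, 10.7 and 84.4 CPM in Tet2fl/fl libraries, with Tet2fl/fl replicate 3 highest. B and plasma cell markers summed to 275, 329 and 324 CPM in Cd4CreTet2KO libraries and 487, 264 and 532 CPM in Tet2fl/fl libraries. Most of each sum was Ighm, at 251, 246 and 265 CPM in Cd4CreTet2KO libraries and 317, 231 and 292 CPM in Tet2fl/fl libraries. Igkc differed more between libraries, at 12.3, 55.3 and 39.6 CPM in Cd4CreTet2KO libraries and 127, 10.4 and 202 CPM in Tet2fl/fl libraries. Hepatocyte markers summed to 34.3 to 45.5 CPM in Cd4CreTet2KO libraries and 38.9 to 58.7 CPM in Tet2fl/fl libraries, most of it Trf, while Alb did not exceed 4.49 CPM in any library. The 11 epithelial and colorectal tumour markers summed to 33.3, 34.2 and 22.4 CPM in Cd4CreTet2KO libraries and 56.8, 55.4 and 23.2 CPM in Tet2fl/fl libraries, most of it Epcam, a cell adhesion protein of epithelia, and the lectin Lgals4. Epcam stood at 15.5, 13.8 and 8.62 CPM in Cd4CreTet2KO libraries and 10.7, 27.7 and 6.03 CPM in Tet2fl/fl libraries, and Lgals4 at 11.8, 19.5 and 11.3 CPM in Cd4CreTet2KO libraries and 19.5, 27.4 and 15.2 CPM in Tet2fl/fl libraries. The keratin genes Krt8 and Krt19 were at 0 in all libraries but Tet2fl/fl replicate 1, where they stood at 2.68 and 6.03 CPM. Krt18, another keratin gene, stood at 2.37, 0.557 and 0.127 CPM in Cd4CreTet2KO libraries and 17.6, 0.263 and 0.862 CPM in Tet2fl/fl libraries. No member of these lists was called by edgeR.

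Immediate early genes, which are induced within minutes of activation or stress, were split. Of 24 genes tested, edgeR called none, 6 were lower and 2 higher at an unadjusted p under 0.05, where 2.75% of all genes were lower and 3.51% higher, and the median log2 fold change was -0.27. Jun, a subunit of the AP-1 factor, stood at 1433, 1984 and 1738 CPM in Cd4CreTet2KO libraries and 3039, 4292 and 3102 CPM in Tet2fl/fl libraries (log2 fold change -1.02, SE 0.19, edgeR adjusted p = 0.083). Fosl2, another AP-1 subunit, lay the other way, at 887, 925 and 1074 CPM in Cd4CreTet2KO libraries and 507, 508 and 302 CPM in Tet2fl/fl libraries (log2 fold change 1.13, SE 0.21, edgeR adjusted p = 0.083). The genotypes did not overlap for either gene. Fos (-0.78) and Egr2 (-0.83) lay on the side of Jun, and Dusp5 (0.79), a phosphatase that limits ERK, on the side of Fosl2, none of them called by edgeR.

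Cell cycle genes lay higher in the knockout libraries as a group without a single call by edgeR. Of 32 tested, 30 had a log2 fold change above 0, 8 were higher and 0 lower at an unadjusted p under 0.05, where 3.51% of all genes were higher. The libraries did not overlap for 13, all higher, where 7.79% of all genes did so, and the median was 0.50. Cenpe, a kinetochore motor, stood at 97.3, 70.9 and 81.5 CPM in Cd4CreTet2KO libraries and 30.1, 45.4 and 23.3 CPM in Tet2fl/fl libraries (log2 fold change 1.34, SE 0.30, edgeR adjusted p = 0.203). Bub1b, a spindle checkpoint kinase, stood at 62.9, 41.6 and 42.0 CPM in Cd4CreTet2KO libraries and 17.9, 18.0 and 22.7 CPM in Tet2fl/fl libraries (log2 fold change 1.32, edgeR adjusted p = 0.316). These mitotic genes were apart between the genotypes. The proliferation marker Mki67 was not: it stood at 843, 827 and 823 CPM in Cd4CreTet2KO libraries and 866, 573 and 689 CPM in Tet2fl/fl libraries (log2 fold change 0.23, edgeR adjusted p = 0.954).

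Genes of naive, stem-like and memory T cells had a median below 0. Of 20 tested, edgeR called none, 17 had a log2 fold change below 0, 4 were lower and 0 higher at an unadjusted p under 0.05, where 2.75% of all genes were lower, and the median was -0.34. Klf2, a factor that keeps T cells quiescent and recirculating, stood at 284, 282 and 290 CPM in Cd4CreTet2KO libraries and 349, 635 and 705 CPM in Tet2fl/fl libraries (log2 fold change -0.98, SE 0.23, edgeR adjusted p = 0.224). The knockout libraries were close together and the controls spread widely above them. Tcf7, the factor of stem-like T cells, stood at 785, 296 and 532 CPM in Cd4CreTet2KO libraries and 690, 806 and 1274 CPM in Tet2fl/fl libraries (log2 fold change -0.78, edgeR adjusted p = 0.727), with overlap. Lef1, its close relative, averaged 215 ± 69.9 CPM in Cd4CreTet2KO and 343 ± 72.9 CPM in Tet2fl/fl cells (log2 fold change -0.67, edgeR adjusted p = 0.588).

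edgeR called no gene of the regulatory T cell list, and in the other settings at most 1 was called, Areg, higher and with no filter on low counts. Foxp3, their defining factor, stood at 530, 1105 and 794 CPM in Cd4CreTet2KO libraries and 768, 791 and 562 CPM in Tet2fl/fl libraries (log2 fold change 0.20, SE 0.24, edgeR adjusted p = 0.981). The knockout libraries spanned both sides of the controls. Of the 20 regulatory genes tested, 4 were higher and 1 lower at an unadjusted p under 0.05, where 3.51% of all genes were higher and 2.75% lower, with a median of 0.21. Areg, a growth factor of tissue regulatory cells, averaged 133 ± 50.3 CPM in Cd4CreTet2KO and 65.3 ± 16.0 CPM in Tet2fl/fl cells (log2 fold change 1.02, edgeR adjusted p = 0.481). Il1rl1, the receptor of interleukin 33, averaged 287 ± 13.9 CPM in Cd4CreTet2KO and 176 ± 50.8 CPM in Tet2fl/fl cells (log2 fold change 0.71, edgeR adjusted p = 0.504). Izumo1r, a folate receptor family protein of regulatory and anergic cells, averaged 63.4 ± 30.9 CPM in Cd4CreTet2KO and 104 ± 9.39 CPM in Tet2fl/fl cells (log2 fold change -0.71, edgeR adjusted p = 0.767).

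Inhibitory receptors and regulators tied to T cell exhaustion moved in no common direction. Of 14 inhibitory receptors and 12 regulators tested, edgeR called none. Havcr2, which encodes the inhibitory receptor TIM-3, stood at 51.7, 121.7 and 69.5 CPM in Cd4CreTet2KO libraries and 56.8, 29.4 and 26.1 CPM in Tet2fl/fl libraries (log2 fold change 1.12, edgeR adjusted p = 0.576), with overlap. Pdcd1, which encodes PD-1, averaged 214 ± 68.1 CPM in Cd4CreTet2KO and 164 ± 28.2 CPM in Tet2fl/fl cells (log2 fold change 0.38, edgeR adjusted p = 0.920). Among the regulators, Nr4a2, a nuclear receptor induced by antigen signals, stood at 255, 241 and 325 CPM in Cd4CreTet2KO libraries and 147, 162 and 81.9 CPM in Tet2fl/fl libraries (log2 fold change 1.07, SE 0.24, edgeR adjusted p = 0.222). Its relative Nr4a3 had a log2 fold change of 0.76 (edgeR adjusted p = 0.332), and Tox, a factor that maintains exhausted cells, one of -0.11 (edgeR adjusted p = 0.992). Eomes, a T-box factor of effector and memory cells, lay lower, at 2.66, 5.02 and 1.52 CPM in Cd4CreTet2KO libraries and 19.9, 14.1 and 10.5 CPM in Tet2fl/fl libraries (log2 fold change -2.27, edgeR adjusted p = 0.576). DESeq2 called 2 of the 12 regulators, Nr4a2 and Nr4a3, both higher, where it called 0.569% of all genes higher, and none of the inhibitory receptors.

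edgeR called no gene of the T helper lists, while DESeq2 called 1 of 12 T helper 1 genes and 1 of 8 T helper 17 genes, Rora, both higher, where it called 0.569% of all genes higher. In the T helper 1 list, the cytokine gene Ifng stood at 27.1, 14.4 and 38.2 CPM in Cd4CreTet2KO libraries and 70.1, 37.2 and 61.7 CPM in Tet2fl/fl libraries (log2 fold change -1.08, edgeR adjusted p = 0.601). Its activator Tbx21 had a log2 fold change of -0.80 (edgeR adjusted p = 0.689). Of the T helper 17 genes, Rora averaged 716 ± 24.6 CPM in Cd4CreTet2KO and 403 ± 107 CPM in Tet2fl/fl cells (log2 fold change 0.83, edgeR adjusted p = 0.254) and Ccr6 averaged 69.5 ± 10.3 CPM in Cd4CreTet2KO and 40.1 ± 4.45 CPM in Tet2fl/fl cells (log2 fold change 0.79, edgeR adjusted p = 0.576). Bcl6, the factor of follicular helper cells, averaged 36.2 ± 12.8 CPM in Cd4CreTet2KO and 14.8 ± 5.604 CPM in Tet2fl/fl cells (log2 fold change 1.28, edgeR adjusted p = 0.576). Gata3, the T helper 2 factor, averaged 302 ± 68.6 CPM in Cd4CreTet2KO and 305.1 ± 53.6 CPM in Tet2fl/fl cells.

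GTPases induced by interferon gamma and genes of MHC class I antigen processing had medians below 0. Of 14 GTPases tested, edgeR called none, 12 had a log2 fold change below 0, 6 were lower at an unadjusted p under 0.05, where 2.75% of all genes were lower, and the median was -0.30. Tgtp1 stood at 43.5, 46.7 and 83.0 CPM in Cd4CreTet2KO libraries and 113, 108 and 146 CPM in Tet2fl/fl libraries (log2 fold change -1.08, SE 0.27, edgeR adjusted p = 0.322). Iigp1 stood at 33.8, 58.1 and 67.4 CPM in Cd4CreTet2KO libraries and 99.7, 100 and 101 CPM in Tet2fl/fl libraries (log2 fold change -0.91, edgeR adjusted p = 0.485). Both act in the defence of cells against intracellular microbes, and neither overlapped between the genotypes. All 13 MHC class I genes tested lay below 0 with a median of -0.19, and B2m, the shared light chain, averaged 1091 ± 150 CPM in Cd4CreTet2KO and 1487 ± 51.4 CPM in Tet2fl/fl cells (log2 fold change -0.45, edgeR adjusted p = 0.595).

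In the interleukin 2 pathway list, the feedback inhibitor Socs3 stood at 315, 250 and 315.8 CPM in Cd4CreTet2KO libraries and 428, 564 and 574 CPM in Tet2fl/fl libraries (log2 fold change -0.83, SE 0.18, edgeR adjusted p = 0.192). Socs2 averaged 26.6 ± 5.65 CPM in Cd4CreTet2KO and 50.7 ± 3.60 CPM in Tet2fl/fl cells (log2 fold change -0.93, edgeR adjusted p = 0.576). Integrin and adhesion genes had 6 members higher and 1 lower at an unadjusted p under 0.05 among 19 tested, where 3.51% of all genes were higher and 2.75% lower, with none called by edgeR and a median of 0.24. Itgb3, an integrin beta chain, stood at 234, 263 and 244 CPM in Cd4CreTet2KO libraries and 123, 164 and 161 CPM in Tet2fl/fl libraries (log2 fold change 0.72, SE 0.18, edgeR adjusted p = 0.316), and its partner Itgav averaged 516 ± 226 CPM in Cd4CreTet2KO and 285 ± 60.7 CPM in Tet2fl/fl cells (log2 fold change 0.86, edgeR adjusted p = 0.560). Genes of the T cell receptor complex and its proximal signalling, 17 tested, had a median of -0.19 and 1 member, Cd247, at an unadjusted p under 0.05, where 6.26% of all genes were (log2 fold change -0.47, edgeR adjusted p = 0.733). The costimulatory protein Cd6 averaged 272 ± 31.1 CPM in Cd4CreTet2KO and 455 ± 84.4 CPM in Tet2fl/fl cells (log2 fold change -0.74, edgeR adjusted p = 0.316).

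The T cell and metabolic lists given here had medians between -0.24 and 0.090, and no member of them was called by edgeR. The median log2 fold change was 0.0014 for 19 cytotoxic effector genes, -0.20 for 26 type I interferon response genes, and -0.24 for 14 secreted cytokines and chemokines. It was -0.074 for 11 chemokine and homing receptors and -0.090 for 18 genes of the BCL2 family and death receptors. DESeq2 called 1 member higher and none lower in each of the cytotoxic, cytokine and chemokine receptor lists, where it called 0.569% of all genes higher. The members of smallest p there were Klrc1 (log2 fold change 6.59), Penk (1.19) and Ccr2 (1.03), with edgeR adjusted p of 0.595, 0.203 and 0.316. Klrc1 was low in both genotypes, at 4.57, 2.45 and 2.16 CPM in Cd4CreTet2KO libraries and at most 0.066 CPM in Tet2fl/fl libraries. Its log2 fold change is therefore uncertain (SE 2.33). At an unadjusted p under 0.05, 1 cytotoxic gene and 1 cytokine gene were lower, where 2.75% of all genes were. Metabolic lists had medians of -0.046 for 21 glycolysis and hypoxia genes, 0.090 for 22 nuclear oxidative phosphorylation genes and -0.098 for 17 sterol and fatty acid synthesis genes.

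**Figure D4:**
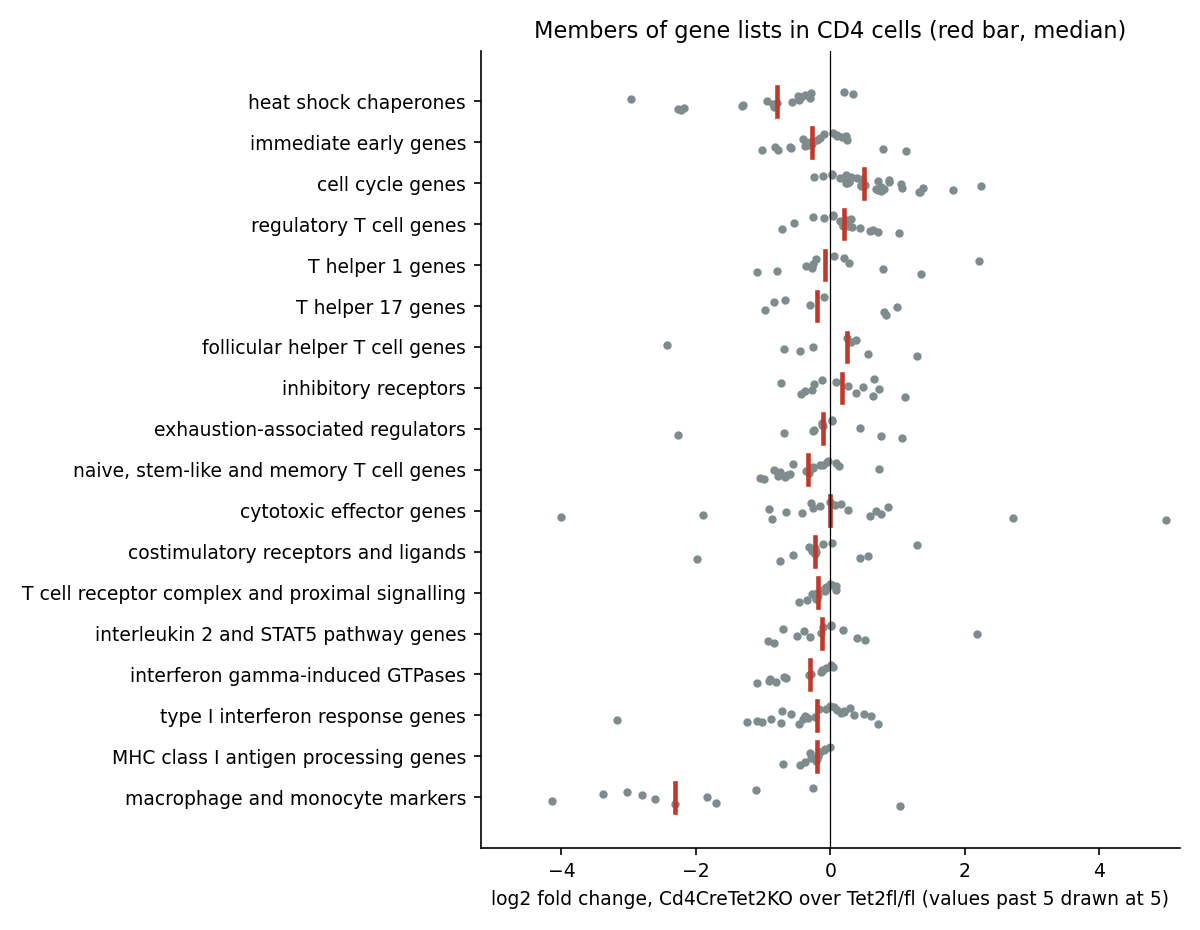
Log2 fold changes (Cd4CreTet2KO over Tet2fl/fl, horizontal axis) of the tested members of 18 gene lists in CD4 cells (grey points), with each list's median as a red bar. The medians lie at -0.79 for heat shock chaperones, 0.50 for cell cycle genes, -0.34 for naive, stem-like and memory genes and -2.30 for macrophage and monocyte markers, and between -0.30 and 0.25 for the other lists.

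The called genes were also read in Vav1CreTet2KO mice and in CD8 cells, as values only, since the Vav1CreTet2KO comparison shares the controls and the CD8 libraries share animals. In CD4 cells of Vav1CreTet2KO mice, whose replicate 1 had only 707866 counts, Hspa1b stood at 214, 627 and 3310 CPM, scaled over all 9 CD4 libraries. On that scale it stood at 1270, 1935 and 2355 CPM in Cd4CreTet2KO and 9963, 10375 and 6468 CPM in Tet2fl/fl libraries. Gm5148 stood at 1671, 1395 and 273 CPM and Rps18-ps6 at 274, 245 and 171 CPM in Vav1CreTet2KO libraries, above every Tet2fl/fl library, whereas Cd4CreTet2KO libraries were below them. Zc3h12c stood at 69.3, 165 and 80.1 CPM in Vav1CreTet2KO libraries, in or above the range of Cd4CreTet2KO libraries. In CD8 cells, Hspa1b stood at 228, 322, 269 and 307 RPKM in Cd4CreTet2KO libraries and 1434, 1202 and 930 RPKM in Tet2fl/fl libraries, and Dnajb1 at 23.9, 34.0, 43.1 and 33.6 RPKM in Cd4CreTet2KO and 103, 93.2 and 60.1 RPKM in Tet2fl/fl libraries. The heat shock genes thus lay lower in knockout cells of both lineages, in mice of which 5 gave both cell types. Zc3h12c lay the other way in CD8 cells, at 6.30, 2.503, 1.68 and 5.04 RPKM in Cd4CreTet2KO libraries and 11.5, 6.91 and 7.28 RPKM in Tet2fl/fl libraries.

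**Figure D5:**
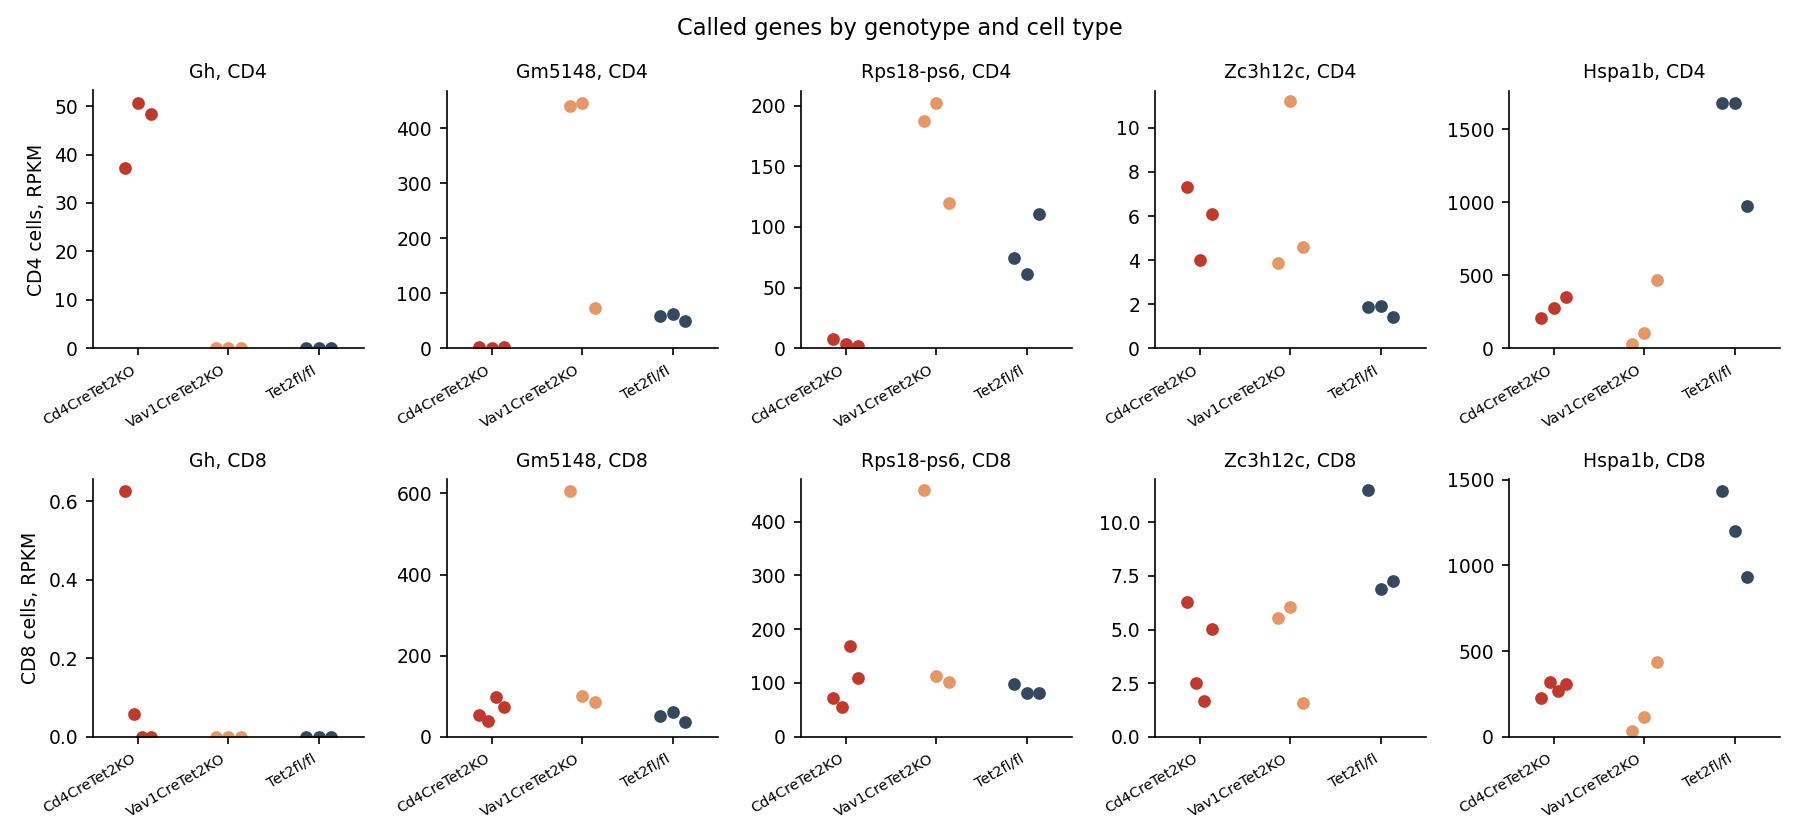
RPKM of 5 called genes in each library of CD4 cells (upper row) and CD8 cells (lower row), by genotype, on separate linear axes and from tables normalized separately. Gh is seen in CD4 cells of Cd4CreTet2KO mice, Hspa1b is highest in Tet2fl/fl cells of both lineages, and Zc3h12c is higher in Cd4CreTet2KO than in Tet2fl/fl CD4 cells but lower in CD8 cells.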

How the data were processed

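Per the labels' protocols, RNA of the sorted CD4 T cells went through the SMARTer Stranded Total RNA-seq v2 Pico kit and paired-end sequencing. The authors deposited a table of CD4 cells with counts of reads per gene, per the file headers, and a table of CD8 cells with RPKM values. The authors' deposited RPKM values are reads scaled to gene length and library size, per the file headers. The sources used here name no aligner or counter and do not say whether counting used strand, while the submitters' processing notes name GRCm38 and mm10. Of 25582 gene IDs found in a GRCm38 annotation, only 551 had the same position there, so table coordinates are printed as given with their build unstated. Promoters are RefSeq sequence of GRCm38.p6. Low counts were mostly even, with 21.3% to 30.7% of counts from 1 to 20 odd in the 6 libraries. Of the per-sample columns, 28 were read and 18 were not used.

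Counts of the 3 Cd4CreTet2KO and 3 Tet2fl/fl libraries entered edgeR 4.0.16 (R 4.3.3): filterByExpr (minimum count 10, minimum total 15), TMM factors, robust quasi-likelihood fit and Benjamini-Hochberg adjustment at 0.05. Total counts per library were 9096532 to 17575534, and the common biological coefficient of variation was 0.672. CPM was computed from the counts with TMM factors. Shares of counts were compared with exact permutation tests (scipy 1.17.1). Replicates were separate animals, per the labels.

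The 41 gene lists (580 entries), the comparison and the named genes were chosen with earlier results of these data known. Named genes were Tet2, called genes, the members of smallest p of each list, the 8 largest changes in each direction by the rule in the text, and Cd4, Cd3e, Cd8a and Foxp3. Hsph1, Hsp90aa1, Hspa5, Chordc1, Hspa4l, Fos, Egr2, Dusp5, Bub1b, Mki67, Tcf7, Lef1, Pdcd1, Tox, Tbx21, Gata3, Iigp1, Itgav, Izumo1r, Lyz2, Csf1r and the overlapping or parent genes of called genes were added after their values were seen. Alternatives were size factors (RLE), no filter, 9 or 8 CD4 libraries in the fit, a replicate block, halved counts, gene classes left out, each library left out, DESeq2 1.42.0 and limma 3.58.1 voom with quality weights.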

Additional observations from a re-analysis of the deposited data

Results flagged for a closer look

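Zc3h12c was flagged because its genotypes lay apart in opposite directions in the 2 cell types. In CD4 cells every Cd4CreTet2KO library lay above every Tet2fl/fl library (log2 fold change 1.82), and in CD8 cells every Cd4CreTet2KO library lay below every Tet2fl/fl library, with means of 3.88 RPKM in Cd4CreTet2KO and 8.57 RPKM in Tet2fl/fl cells and a log2 ratio of means of -1.14. Nrn1 was flagged for the same reason, with a log2 fold change of 3.33 in CD4 cells and means of 6.27 RPKM in Cd4CreTet2KO and 28.1 RPKM in Tet2fl/fl CD8 cells, a log2 ratio of -2.16. The difference between cell types was not tested for either gene. CD8 libraries of 2 animals, Cd4CreTet2KO replicates 1 and 2, came from mice without a CD4 library.

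Gh was flagged in CD8 cells, where Cd4CreTet2KO replicate 1 stood at 0.626 RPKM, far from 0.0589, 0 and 0 RPKM in replicates 2 to 4 and above the 0 RPKM listed in all Tet2fl/fl CD8 libraries. For normally distributed values chance flags such a gap in about 1 in 20 groups of 4, and the rate was not measured for a group that holds libraries at 0.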

How the results depend on the processing

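The count of 8 calls ranged from 8 to 15 when each library was left out. It was 4 with all 9 CD4 libraries, 4 with 8 CD4 libraries (without the shallow one), 5 with stress, ribosomal protein and mitochondrial genes left out, 13 with the replicate block, 16 with voom, 106 with no filter and 149 with DESeq2. The cause was not tested, except that the 5 are the 8 calls without the 3 heat shock genes left out. The 4 genes lost with 9 libraries were Dnajb1, Hspa1a, Hspa1b and Zc3h12c, and with 8 libraries Gm5148, Hspa1a, Hspa1b and Zc3h12c. Voom lost Gh, Gm45234 and Zc3h12c. The replicate block kept all 8, but same-numbered samples share only a number, with correlations of deviations of 0.005, 0.069 and 0.008. RLE factors, halved counts and leaving out markers of other cells kept the same 8 genes.

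No called gene changed direction in any setting. Of the named genes not called, log2 fold changes changed sign on leaving out 1 library, with ranges of -0.046 to 0.56 for Tet2, -0.086 to 0.43 for Foxp3, -0.12 to 0.028 for Cd4, -4.14 to 0.85 for Krt18, -0.39 to 0.064 for Pecam1, -0.035 to 0.60 for Cd74, -0.31 to 0.0036 for Trf, -0.33 to 0.93 for Tyrobp, -2.17 to 0.45 for Hba-a1 and -0.49 to 4.68 for Itga2b. Trgc1 had a log2 fold change of 1.42 with voom, against -0.66 in edgeR. Heat shock chaperone medians stayed between -0.86 and -0.59 and cell cycle medians between 0.46 and 0.68, with 0 to 7 chaperones called lower and 0 to 2 cell cycle genes called higher. DESeq2 called 5 chaperones lower, 2 cell cycle genes higher, and 1 immediate early gene higher and 2 lower. It called 1 gene lower in each of the naive, interferon gamma GTPase, interleukin 2 and costimulatory lists, and 1 integrin or adhesion gene higher. Over all genes DESeq2 called 0.569% higher and 0.491% lower. With 3 animals a group, shares cannot reach an exact p under 0.1.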
